A study of Homo sapiens with 9 samples.

Results

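The genes described here are 31 established target genes of the transcription factor p53, given as a list of gene names. Each was found in the files by its Ensembl identifier through GENCODE 29 symbols, 31 of 59107 gene entries per library, and 28 of them were among the 13777 genes with enough signal to test (at least 1 FPKM in at least 3 libraries). FPKM is the number of sequenced fragments for each kilobase of a gene's transcript, relative to the size of the library. The gene for p53 itself is not on the list and is not reported here. RNA was sequenced from HK1, a cell line of human nasopharyngeal carcinoma grown in DMEM with serum, in 9 libraries forming 3 groups of 3. All cells were transfected: the first group received a non-targeting control siRNA, the next an siRNA against E2F1 and the last an siRNA against E2F3, each at 100 nM for 48 h, so transfection itself is shared by every group and no untransfected cells entered a comparison. HK1 is a single established line, and the labels do not say whether replicate libraries came from separate cultures, so p-values measure the spread between these libraries, which may be technical.

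In unstressed cells p53 is made continuously and destroyed with the help of MDM2, a ubiquitin ligase that is itself encoded by a p53 target gene. DNA damage and other stresses release p53, which then binds response elements near genes for cell cycle arrest, DNA repair, metabolism and apoptosis, and near genes that switch it off again. E2F1 and E2F3 are transcription factors that the retinoblastoma protein holds inactive and that switch on genes of DNA replication, and the E2F and p53 pathways are linked through shared regulators. The files hold RNA only, so the amount and activity of the p53 protein were not measured.

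Both siRNAs lowered their target. E2F1 RNA was 19.5 to 20.2 FPKM in the control libraries and 7.17 to 7.95 FPKM after E2F1 siRNA (log2 -1.30, SE 0.0602, adjusted p = 3.71e-07 in limma), and E2F3 RNA was 24.4 to 27.2 FPKM against 10.5 to 12.6 FPKM after E2F3 siRNA (log2 -1.10, SE 0.072, adjusted p = 3.58e-06). All 10 epithelial and squamous keratinocyte markers examined reached 1 FPKM, while 0 of 4 leukocyte, 0 of 3 endothelial and 1 of 5 fibroblast markers (COL1A1) did so in at least 3 libraries. The summed level of the 10 epithelial markers was 2805 to 2831 FPKM in the control libraries, 2016 to 2129 FPKM after E2F1 siRNA and 1933 to 2043 FPKM after E2F3 siRNA. Keratins made up most of that sum, and not every marker was lower: EPCAM averaged 174.6, 194.6 and 176.9 FPKM and DSP 73.2, 68.6 and 86.5 FPKM in the control, E2F1 siRNA and E2F3 siRNA groups. The summed fibroblast markers were 13.6 to 14.8, 17.4 to 20.3 and 14.2 to 16.1 FPKM. The part of either set in the differences below was not tested. In a bulk library, fewer cells making an RNA and less of it per cell cannot be told apart. A single fragment in a gene of 1 kb was worth 0.0375 to 0.0534 FPKM, and library depth ran from 0.852 to 1.213 times that of control library 1.

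After E2F1 siRNA, 13 of the 28 tested p53 targets changed at adjusted p under 0.05 (46.4%), against 37.8% of all genes tested. Lower levels predominated among them: 9 were lower (32.1%, against 17.3% of all genes) and 4 were higher (14.3%, against 20.5%). TP53INP1 reached 1 FPKM in 4 libraries only, the 3 control libraries and E2F1 siRNA library 2, so it entered the test through the group in which it was high. Without it 12 of 27 changed (44.4%), 8 of them lower (29.6%). The lower genes included the autophagy gene DRAM1, the kinase PLK2 and the death receptor TNFRSF10B, and the higher ones were XPC, PPM1D, AEN and FDXR. The median difference from control was -0.15 over the 28 targets and 0.03 over all genes. All differences and medians are given on the log2(FPKM + 1) scale, which understates the change of genes with low levels, and tests are limma's with Benjamini-Hochberg adjustment over all 13777 genes.

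After E2F3 siRNA, 11 of the 28 changed (39.3%, against 37.6% of all genes), a share close to the background. Of these, 7 were lower (25% against 16.4%) and 4 were higher (14.3% against 21.1%). Without TP53INP1 the counts were 10 of 27 (37%) with 6 lower (22.2%). GDF15, FDXR, FAS and DDB2 were among the lower genes, and XPC, MDM4, BTG2 and TRIAP1 were the higher ones. The median was -0.02 over the targets and 0.04 over all genes. Both comparisons use the same 3 control libraries, so their results are not independent of each other, and each knockdown's values are therefore set side by side below.

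The knockdowns were also compared with each other directly, and 17 of the 28 targets differed (60.7%, against 45.5% of all genes). Levels were higher after E2F3 siRNA than after E2F1 siRNA for 10 (35.7%, against 23.5%) and lower for 7 (25%, against 22.0%), with a median of 0.03 over the targets and 0.02 over all genes. Across the 3 comparisons, 22 of the 28 tested targets were called at least once (78.6%, against 63.6% of all genes). TP53INP1 is counted among the 22. The remaining 6, MDM2, TNFRSF10A, TP53I3, CCNG1, POLH and TIGAR, were called in none.

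**Figure D1:**
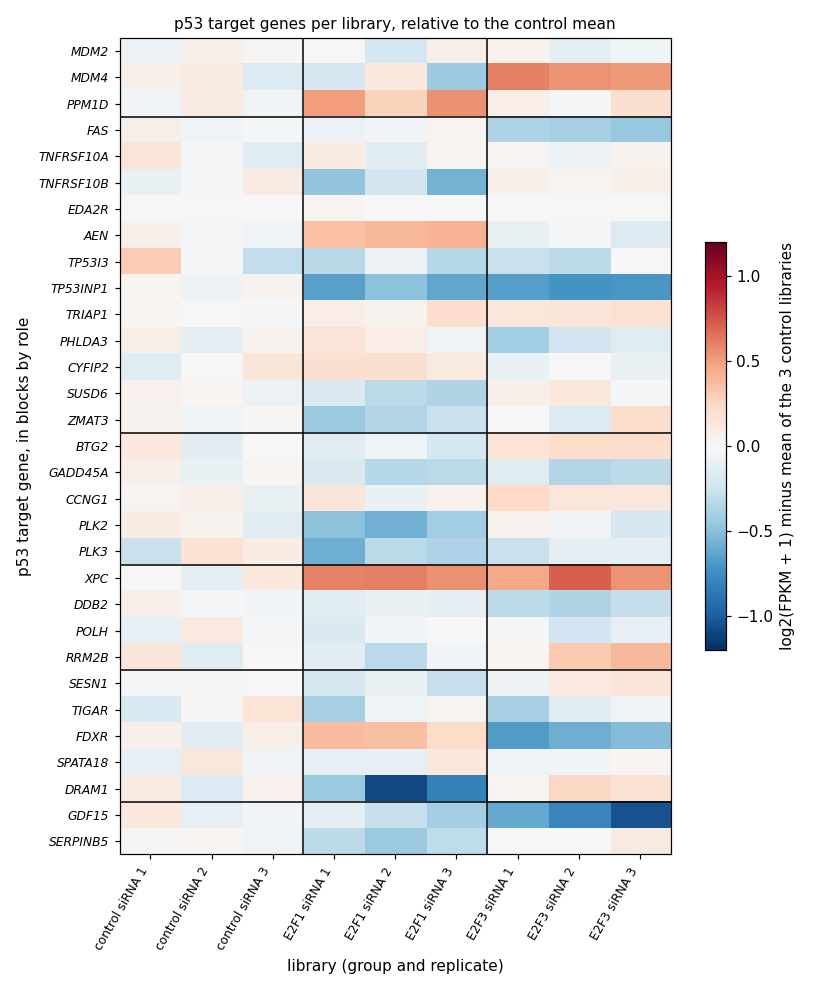
Log2(FPKM + 1) of each of the 31 p53 target genes (rows, in blocks by role) in each of the 9 libraries (columns), minus the mean of the 3 control libraries; red is higher and blue is lower than the control mean. XPC is red in all 6 knockdown libraries and TP53INP1 blue in all 6, while FDXR is red after E2F1 siRNA and blue after E2F3 siRNA, and DRAM1 is blue after E2F1 siRNA.

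The promoters of 4 targets are shown because their levels moved in different ways and because they carry the letters by which E2F and p53 proteins are known to recognise DNA. Windows from 250 bases before to 50 bases after the start of transcription were available for 25 of the 31 genes (38 windows, RefSeq, GRCh38.p14). They were searched on both strands for the E2F site, spelled TTTCCCGC, TTTCGCGC, TTTGCCGC or TTTGGCGC, and for the p53 decamer, the 10-base unit that is repeated in a p53 response element and reads alike on both strands. The decamer was spelled RRRCWWGYYY, where R is A or G, W is A or T and Y is C or T. Only exact matches were counted, so a response element that departs from this spelling was missed. A window without a match, that of MDM2 included, may still hold such an element. The E2F letters occurred in 6 of the 38 windows (15.8%), belonging to AEN, CYFIP2, MDM2, SUSD6 and XPC, and in 3.31% of all 35116 windows. MDM2 counts here with overlapping windows, starting at bases 68807922 and 68807927, that hold the same site. This motif joined the search after the data were seen. The genes with these letters did not move alike after E2F1 siRNA. XPC and AEN were higher (log2 0.58 and 0.39), and SUSD6, with TTTCCCGC at position -67 from the start, was lower (log2 -0.28). MDM2 was not called and CYFIP2 was not tested. The decamer occurred in 6 windows (15.8%), belonging to AEN, DDB2, FAS, FDXR, PLK2 and SESN1, and in 6.63% of all windows. A pair of decamers at most 13 bases apart was found in DDB2 and in 0.0285% of all windows. Below are the 250 bases before the start for XPC (chr3:14178602-14178851, minus strand), AEN (chr15:88621090-88621339, plus strand) and FDXR (chr17:74872995-74873244, minus strand), and for DDB2 only the 21 bases of the decamer pair (chr11:47214979-47214999, plus strand). The pair begins at base 6 of the transcript from the DDB2 start whose window is bases 47214724-47215023. The other DDB2 window, bases 47214204-47214503, holds neither the decamer nor the E2F letters. The sequences are written 5′ to 3′ along the gene, with the matched letters in capitals. A match describes the letters only and does not show that a protein was bound.
XPC: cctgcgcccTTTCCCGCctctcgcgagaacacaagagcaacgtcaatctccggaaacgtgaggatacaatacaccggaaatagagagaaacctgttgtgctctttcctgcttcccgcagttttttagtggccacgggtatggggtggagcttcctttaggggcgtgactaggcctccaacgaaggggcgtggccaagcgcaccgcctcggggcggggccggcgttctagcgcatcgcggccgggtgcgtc
AEN: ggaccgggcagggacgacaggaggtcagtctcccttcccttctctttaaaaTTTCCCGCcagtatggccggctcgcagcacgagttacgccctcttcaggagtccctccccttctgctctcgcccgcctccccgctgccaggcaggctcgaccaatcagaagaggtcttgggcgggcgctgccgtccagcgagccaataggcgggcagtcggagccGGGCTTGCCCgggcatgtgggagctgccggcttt
FDXR: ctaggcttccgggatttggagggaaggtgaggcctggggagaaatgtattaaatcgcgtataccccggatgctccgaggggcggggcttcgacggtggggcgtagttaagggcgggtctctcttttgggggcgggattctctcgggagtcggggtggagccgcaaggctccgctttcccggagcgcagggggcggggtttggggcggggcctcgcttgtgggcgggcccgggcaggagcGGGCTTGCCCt
DDB2: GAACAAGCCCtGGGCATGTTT
The XPC window holds the E2F letters at position -241, counted from the start. The AEN window holds the same E2F letters at -199 and a decamer at -34, and the FDXR window holds at -11 a decamer of the same 10 letters as in AEN. For comparison, the GC box GGGCGG occurred on either strand in 32 of the 38 windows (84.2%) and in 45.0% of all windows, and the TATA box TATAAA in 1 of 38 (2.63%) and in 11.5%.

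Among the regulators that act back on p53, MDM2 was not called in any comparison, MDM4 was higher after E2F3 siRNA and PPM1D was higher after E2F1 siRNA. MDM2 (chr12:68808176-68850686, plus strand) measured 24.8, 27.3 and 26.4 FPKM in control libraries 1 to 3, 26.1, 22.4 and 27.6 with E2F1 siRNA and 26.9, 23.99 and 25.2 with E2F3 siRNA. The 3 groups overlapped throughout. Its difference from control was log2 -0.05 after E2F1 siRNA (95% interval -0.23 to 0.13, adjusted p = 0.671) and log2 -0.04 after E2F3 siRNA (-0.22 to 0.13, adjusted p = 0.700). MDM2 shares 439 of its 13284 exon bases with the gene AC025423.2 on the same strand (10.8 to 20.8 FPKM) and 785 with AC025423.4 on the opposite strand (4.92 to 11.3 FPKM). Whether reads were counted by strand is not given in the sources used here, so the division of reads between them is uncertain.

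MDM4 (chr1:204516379-204558120, plus strand), a relative of MDM2 that masks the activation domain of p53, measured 8.67, 8.96 and 7.24 FPKM in control libraries 1 to 3, 7.07, 9.10 and 5.83 with E2F1 siRNA and 13.1, 12.5 and 12.2 with E2F3 siRNA. Every E2F3 siRNA library was above every other library, whereas control and E2F1 siRNA libraries overlapped and the E2F1 siRNA libraries were widely spread. The mean was 12.6 ± 0.456 FPKM (SD, n = 3) after E2F3 siRNA against 8.29 ± 0.921 in the control group (log2 0.55, SE 0.132, adjusted p = 0.00863). After E2F1 siRNA the difference from control was not called (log2 -0.17, adjusted p = 0.344) and ran from log2 -0.32 to -0.04 when 1 library was left out, while MDM4 was higher after E2F3 siRNA than after E2F1 siRNA (log2 0.73, SE 0.132, adjusted p = 0.00153). PPM1D (chr17:60600183-60666280, plus strand) encodes the phosphatase WIP1, which removes activating phosphates from p53. It measured 5.64, 6.24 and 5.59 FPKM in control libraries 1 to 3, 8.64, 7.23 and 8.95 with E2F1 siRNA and 6.22, 5.73 and 6.78 with E2F3 siRNA. All E2F1 siRNA libraries lay above all other libraries, with a mean 142% of the control mean (log2 0.44, SE 0.0945, adjusted p = 0.00480). The E2F3 siRNA libraries overlapped with control (log2 0.09, adjusted p = 0.513) and were lower than those with E2F1 siRNA (log2 -0.35, adjusted p = 0.0123).

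Of the 12 targets known for death receptor signalling and apoptosis, 10 were tested. After E2F1 siRNA 4 were lower and 1 was higher, after E2F3 siRNA 3 were lower and 1 was higher, and 6 differed between the knockdowns, 3 in each direction. TP53INP1, which passed the filter through the control libraries, is among the lower ones after either siRNA. As shares of the 10, these were 50%, 40% and 60% called, against 37.8%, 37.6% and 45.5% of all genes. Without TP53INP1 the shares of both comparisons with control would be lower. FAS and TNFRSF10B were each lower after a different siRNA. FAS (chr10:88990582-89015785, plus strand), the receptor of the FAS ligand, measured 17.97, 16.5 and 16.7 FPKM in control libraries 1 to 3, 16.1, 16.6 and 17.4 with E2F1 siRNA and 12.96, 12.6 and 12.1 with E2F3 siRNA. The 3 E2F3 siRNA libraries were below all others, and control and E2F1 siRNA libraries overlapped. FAS was lower after E2F3 siRNA (log2 -0.41, SE 0.0586, adjusted p = 4.76e-04) and not called after E2F1 siRNA (log2 -0.03, adjusted p = 0.748), and the knockdowns differed (log2 -0.38, adjusted p = 5.47e-04). It shares 380 of 4253 exon bases with ACTA2 on the opposite strand, which averaged 9.97, 4.68 and 10.3 FPKM in the control, E2F1 siRNA and E2F3 siRNA groups, and reads of the shared bases cannot be assigned with certainty.

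TNFRSF10B, a receptor of the death ligand TRAIL, measured 65.04, 68.3 and 73.9 FPKM in control libraries 1 to 3, 49.4, 58.9 and 46.1 with E2F1 siRNA and 72.6, 70.5 and 72.3 with E2F3 siRNA. Here the 3 E2F1 siRNA libraries were lowest, library 2 the least so, and the other groups overlapped. The gene was lower after E2F1 siRNA than in control (log2 -0.42, SE 0.0821, adjusted p = 0.00274) and higher after E2F3 siRNA than after E2F1 siRNA (log2 0.48, SE 0.0821, adjusted p = 0.00107). Its relative TNFRSF10A, the other TRAIL receptor with a death domain, stayed between 10.2 and 12.7 FPKM in all 9 libraries and was called in no comparison. Its differences were log2 -0.01 after E2F1 siRNA (95% interval -0.20 to 0.19) and 0.00 after E2F3 siRNA (-0.20 to 0.20). TNFRSF10A shares 266 exon bases with AC100861.1 (5.87 to 9.43 FPKM) and 224 with TNFRSF10A-AS1 (3.32 to 5.43 FPKM), both on the opposite strand. EDA2R, a receptor of ectodysplasin in the same family, was listed at 0 in 8 libraries and at 0.02 FPKM in E2F1 siRNA library 1, and was not tested.

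AEN (chr15:88621296-88632282, plus strand), a nuclease that digests DNA in dying cells, measured 19.6, 18.5 and 18.2 FPKM in control libraries 1 to 3, 24.2, 25.1 and 25.4 with E2F1 siRNA and 17.5, 18.4 and 16.8 with E2F3 siRNA. The E2F1 siRNA libraries stood above all others and close together. AEN was higher after E2F1 siRNA (log2 0.39, SE 0.055, adjusted p = 3.87e-04), did not pass the test after E2F3 siRNA (log2 -0.09, adjusted p = 0.224), and differed between the knockdowns (log2 -0.48, SE 0.055, adjusted p = 8.05e-05). TP53INP1, a stress protein that promotes p53 phosphorylation and autophagy, measured 1.99, 1.83 and 2.03 FPKM in control libraries 1 to 3, 0.88, 1.09 and 0.91 with E2F1 siRNA and 0.86, 0.79 and 0.82 with E2F3 siRNA. No knockdown library reached the lowest control library. The mean was 49.2% of control after E2F1 siRNA and 42.2% after E2F3 siRNA, given without a test because the gene passed the filter through the control libraries. The direct difference was not called (log2 -0.10, 95% interval -0.34 to 0.13).

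PHLDA3 (chr1:201464383-201469237, minus strand), a small membrane-binding protein that competes with the survival kinase AKT, measured 28.4, 24.9 and 27.9 FPKM in control libraries 1 to 3, 30.1, 28.7 and 26.02 with E2F1 siRNA and 20.2, 22.9 and 24.3 with E2F3 siRNA. All E2F3 siRNA libraries were below the lowest control library, by a small margin. It was lower after E2F3 siRNA than in control (log2 -0.26, SE 0.0832, adjusted p = 0.0338) and than after E2F1 siRNA (log2 -0.32, adjusted p = 0.0109). The call against control was lost without control library 1 (log2 -0.23), control library 3 (-0.24), E2F3 siRNA library 1 (-0.19) or E2F3 siRNA library 2 (-0.28), with adjusted p = 0.0555 to 0.110. SUSD6 (chr14:69611596-69715142, plus strand), a transmembrane protein of the sushi domain family, measured 6.83, 6.66 and 6.19 FPKM in control libraries 1 to 3, 5.72, 5.04 and 4.88 with E2F1 siRNA and 6.88, 7.25 and 6.48 with E2F3 siRNA. Its E2F1 siRNA libraries were lowest. SUSD6 was lower after E2F1 siRNA (log2 -0.28, SE 0.0809, adjusted p = 0.0199) and higher after E2F3 siRNA than after E2F1 siRNA (log2 0.34, adjusted p = 0.00666). The call against control was lost without control library 1 (log2 -0.26), control library 2 (-0.27), E2F1 siRNA library 2 (-0.27) or E2F1 siRNA library 3 (-0.25), with adjusted p = 0.0562 to 0.0692.

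ZMAT3 (chr3:179017223-179072279, minus strand), a zinc finger protein that binds RNA, measured 2.38, 2.17 and 2.31 FPKM in control libraries 1 to 3, 1.43, 1.58 and 1.73 with E2F1 siRNA and 2.28, 1.93 and 2.81 with E2F3 siRNA. The E2F1 siRNA libraries were below all others. ZMAT3 was lower after E2F1 siRNA (log2 -0.35, SE 0.117, adjusted p = 0.0398), and higher after E2F3 siRNA than after E2F1 siRNA (log2 0.37, adjusted p = 0.0286). Both calls depended on single libraries. The call against control was lost without control library 1, 2 or 3, E2F1 siRNA library 1, 2 or 3, or E2F3 siRNA library 1 (log2 -0.39 to -0.31, adjusted p = 0.0521 to 0.114). The direct call was lost without E2F1 siRNA library 1 (log2 0.32), E2F1 siRNA library 2 (0.37), E2F3 siRNA library 1 (0.37) or E2F3 siRNA library 3 (0.27). TRIAP1, a mitochondrial protein that restrains apoptosis, ranged from 36.1 to 42.5 FPKM. It was higher after E2F3 siRNA (log2 0.16, SE 0.0503, adjusted p = 0.0352), a call that was lost without any 1 of the 3 control or 3 E2F3 siRNA libraries (log2 0.14 to 0.17, adjusted p = 0.0566 to 0.1002). The oxidoreductase TP53I3 ranged from 4.22 to 7.19 FPKM and was called nowhere. CYFIP2, at 0.17 to 0.48 FPKM, was not tested.

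**Figure D2:**
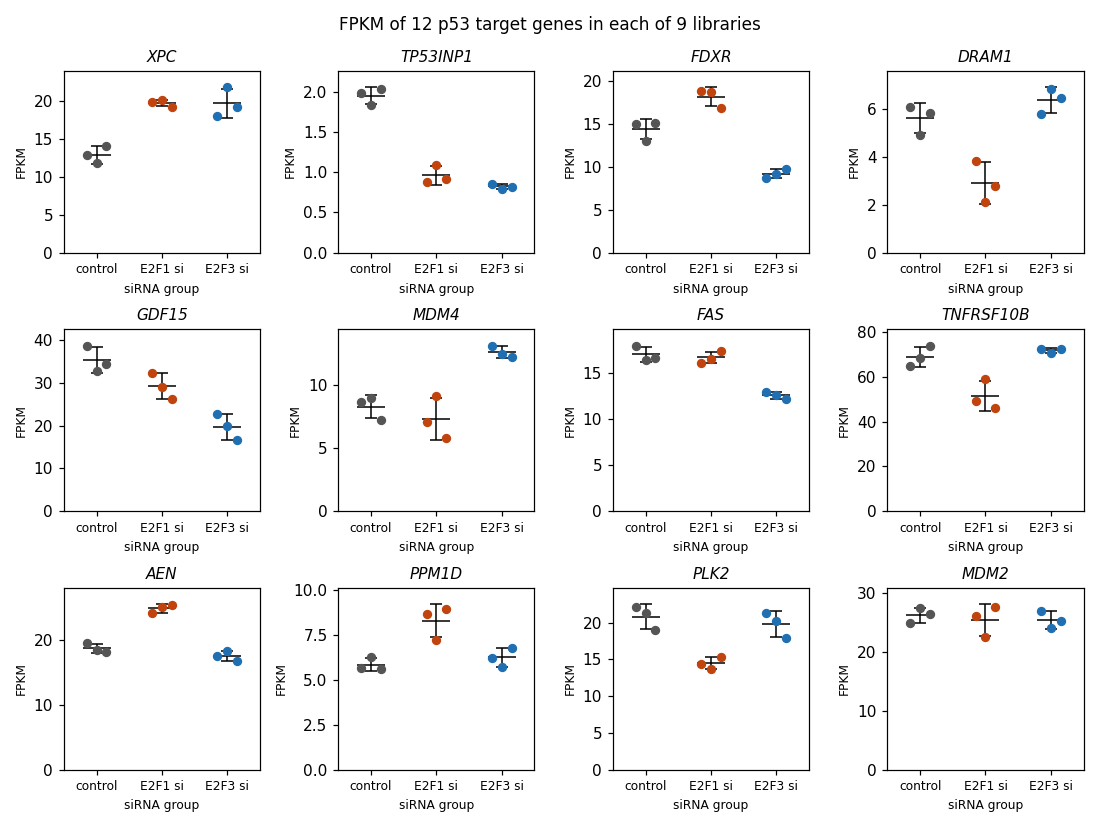
FPKM (vertical axis, from 0) of 12 p53 target genes in the control, E2F1 siRNA and E2F3 siRNA groups; points are libraries and bars are the mean ± SD of 3. XPC lies higher and TP53INP1 lower in both knockdown groups than in control, FDXR lies above control after E2F1 siRNA and below it after E2F3 siRNA, and MDM2 overlaps between all groups.

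The 5 targets known for cell cycle arrest and stress kinases were all tested: 3 were lower and 0 higher after E2F1 siRNA, 1 was lower and 1 higher after E2F3 siRNA, and 2 were higher after E2F3 than after E2F1 siRNA. The called shares were 60%, 40% and 40%, against 37.8%, 37.6% and 45.5% of all genes. PLK2 (chr5:58453982-58460260, minus strand), a polo-like kinase induced by stress, measured 22.2, 21.4 and 18.97 FPKM in control libraries 1 to 3, 14.5, 13.7 and 15.3 with E2F1 siRNA and 21.4, 20.2 and 17.9 with E2F3 siRNA. The E2F1 siRNA libraries were lowest, and the others overlapped. PLK2 was lower after E2F1 siRNA (log2 -0.50, SE 0.0817, adjusted p = 0.00102), was not called after E2F3 siRNA (log2 -0.07, adjusted p = 0.543), and differed between the knockdowns (log2 0.43, adjusted p = 0.00203). Its relative PLK3 (chr1:44800225-44805990, plus strand) measured 5.83, 8.27 and 7.71 FPKM in control libraries 1 to 3, 4.47, 5.56 and 5.35 with E2F1 siRNA and 5.83, 6.58 and 6.59 with E2F3 siRNA. The E2F1 siRNA libraries were again lowest, though control library 1 came close to them. PLK3 was lower after E2F1 siRNA (log2 -0.42, SE 0.123, adjusted p = 0.0214), but its direct difference between the knockdowns was not called (log2 0.26, 95% interval -0.01 to 0.54). The call was lost without control library 2 (log2 -0.34), control library 3 (-0.38) or E2F1 siRNA library 1 (-0.35), with adjusted p = 0.0703 to 0.0774.

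GADD45A (chr1:67685061-67688338, plus strand), a stress sensor that holds cells before mitosis, measured 54.8, 49.4 and 53.2 FPKM in control libraries 1 to 3, 46.3, 41.00 and 41.5 with E2F1 siRNA and 47.3, 40.7 and 42.1 with E2F3 siRNA. All 6 knockdown libraries were below the lowest control library. It was lower after E2F1 siRNA (log2 -0.28, SE 0.0705, adjusted p = 0.0103) and after E2F3 siRNA (log2 -0.27, SE 0.0705, adjusted p = 0.0138), with an interval of -0.14 to 0.17 for the direct difference. The E2F3 call was lost without control library 1 (log2 -0.24, adjusted p = 0.0516). BTG2 (chr1:203305491-203309602, plus strand), an antiproliferative protein that recruits deadenylases to messenger RNA, measured 25.3, 21.1 and 23.2 FPKM in control libraries 1 to 3, 20.9, 22.2 and 19.8 with E2F1 siRNA and 26.02, 27.1 and 26.99 with E2F3 siRNA. The E2F3 siRNA libraries were highest, and control and E2F1 siRNA libraries overlapped. BTG2 was higher after E2F3 siRNA than after E2F1 siRNA (log2 0.34, SE 0.0703, adjusted p = 0.00336). Against control the E2F3 siRNA difference was small (log2 0.20, SE 0.0703, adjusted p = 0.0471), and it was lost without control library 2 (log2 0.14), control library 3 (0.20), E2F1 siRNA library 1 or 3 (0.20 each) or E2F3 siRNA library 1, 2 or 3 (0.22, 0.19 and 0.19), with adjusted p = 0.0501 to 0.1502. After E2F1 siRNA a difference of log2 -0.14 (adjusted p = 0.160) became a call of log2 -0.20 without control library 2 (adjusted p = 0.0490). Cyclin G1, CCNG1, had the highest level of the 31, 78.6 to 99.5 FPKM. It was called neither for E2F1 siRNA (log2 0.04) nor for E2F3 siRNA (log2 0.17, adjusted p = 0.0606), but the difference with E2F3 siRNA passed without E2F1 siRNA library 1 or 2 (log2 0.17, adjusted p = 0.0480 and 0.0357), with upper-quartile scaling (log2 0.19, adjusted p = 0.0415) and with only the libraries compared (adjusted p = 0.0423). Between the knockdowns CCNG1 gave log2 0.13 (adjusted p = 0.124), and log2 0.18 with upper-quartile scaling (adjusted p = 0.0432).

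In the group of 4 targets known for DNA repair and nucleotide supply, XPC was higher after either siRNA, and DDB2 was lower after E2F3 siRNA. All 4 were tested, with 1, 2 and 2 called in the 3 comparisons (25%, 50% and 50%, against 37.8%, 37.6% and 45.5% of all genes). XPC (chr3:14145147-14178783, minus strand), the damage sensor that starts nucleotide excision repair, measured 12.9, 11.8 and 14.1 FPKM in control libraries 1 to 3, 19.95, 20.1 and 19.3 with E2F1 siRNA and 18.1, 21.9 and 19.2 with E2F3 siRNA. Every knockdown library was above every control library. Its mean was 153% of control after E2F1 siRNA (log2 0.58, SE 0.0815, adjusted p = 3.80e-04) and 153% after E2F3 siRNA (log2 0.57, SE 0.0815, adjusted p = 4.64e-04). The direct difference was log2 -0.01, with a 95% interval of -0.19 to 0.17. XPC shares 318 of 4798 exon bases with LSM3 (25.4, 26.9 and 26.4 FPKM in the 3 groups), 413 with AC090004.1 (0 to 0.11 FPKM over the 9 libraries) and 1140 with AC093495.1 (1.03, 0.833 and 1.47 FPKM in the 3 groups), all on the opposite strand, and their part in the XPC level was not tested.

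DDB2 (chr11:47214465-47239240, plus strand), which recognises ultraviolet damage together with its partner DDB1, measured 52.98, 49.9 and 49.8 FPKM in control libraries 1 to 3, 46.4, 47.97 and 46.7 with E2F1 siRNA and 40.7, 39.5 and 41.5 with E2F3 siRNA. The groups did not overlap: control libraries were highest, E2F1 siRNA libraries intermediate and E2F3 siRNA libraries lowest. DDB2 was lower after E2F3 siRNA than in control (log2 -0.32, SE 0.0433, adjusted p = 3.31e-04) and than after E2F1 siRNA (log2 -0.21, adjusted p = 0.00315). After E2F1 siRNA the difference from control was not called (log2 -0.11, adjusted p = 0.0698). RRM2B, a ribonucleotide reductase subunit that supplies DNA building blocks outside S phase, measured 12.9, 10.4 and 11.6 FPKM in control libraries 1 to 3, 10.6, 9.04 and 11.3 with E2F1 siRNA and 11.8, 14.6 and 15.5 with E2F3 siRNA. The E2F3 siRNA libraries were above all E2F1 siRNA libraries, and the control libraries overlapped with both. RRM2B was called only in the direct comparison of the 3 run (log2 0.40, SE 0.117, adjusted p = 0.0186), a call lost without E2F1 siRNA library 2 (log2 0.32), E2F3 siRNA library 2 (0.37) or E2F3 siRNA library 3 (0.33), with adjusted p = 0.0569 to 0.0692. Against control, E2F3 siRNA gave log2 0.24 (adjusted p = 0.134), which became a call without E2F3 siRNA library 1 (log2 0.35, adjusted p = 0.0387). The translesion polymerase gene POLH stayed between 4.69 and 6.22 FPKM and was not called.

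DRAM1 and FDXR, in the group of genes of metabolism and mitochondria, had the widest differences of the tested targets between the knockdowns. Of the 5 genes, 4 were tested: 1 was higher and 1 lower after E2F1 siRNA, 1 was lower after E2F3 siRNA, and 3 differed between the knockdowns. The shares of the 4 were 50%, 25% and 75%, against 37.8%, 37.6% and 45.5% of all genes. FDXR (chr17:74862497-74873031, minus strand), the mitochondrial reductase that passes electrons to ferredoxin, measured 14.95, 12.99 and 15.1 FPKM in control libraries 1 to 3, 18.8, 18.7 and 16.8 with E2F1 siRNA and 8.65, 9.19 and 9.71 with E2F3 siRNA. The 3 groups did not overlap, with E2F1 siRNA highest and E2F3 siRNA lowest. Its mean was 14.3 ± 1.17 FPKM (SD, n = 3) in control, 18.1 ± 1.11 after E2F1 siRNA (log2 0.32, SE 0.0772, adjusted p = 0.00916) and 9.18 ± 0.530 after E2F3 siRNA (log2 -0.59, SE 0.0772, adjusted p = 2.73e-04). FDXR was thus higher than control after one siRNA and lower after the other, and the direct difference was log2 -0.91 (SE 0.0772, adjusted p = 1.15e-05).

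DRAM1 (chr12:101877351-102012130, plus strand), a lysosomal membrane protein that promotes autophagy, measured 6.09, 4.90 and 5.84 FPKM in control libraries 1 to 3, 3.84, 2.11 and 2.76 with E2F1 siRNA and 5.76, 6.83 and 6.46 with E2F3 siRNA. The E2F1 siRNA libraries were lowest, library 2 most of all, while control and E2F3 siRNA libraries overlapped. Its mean after E2F1 siRNA was 51.8% of control (log2 -0.78, SE 0.152, adjusted p = 0.00276). It was not called after E2F3 siRNA (log2 0.15, adjusted p = 0.454), and it had the widest direct difference of the 28 (log2 0.93, SE 0.152, adjusted p = 7.78e-04). SESN1, a sestrin that lowers mTOR signalling, ranged from 7.26 to 8.39 FPKM after E2F1 siRNA and from 8.58 to 10.1 FPKM after E2F3 siRNA, against 8.94 to 9.08 FPKM in control. It differed between the knockdowns (log2 0.26, SE 0.0777, adjusted p = 0.0227), a call lost without E2F1 siRNA library 1 (0.25) or 3 (0.21) or E2F3 siRNA library 2 (0.23) or 3 (0.22). TIGAR, a phosphatase that slows glycolysis, ranged from 7.39 to 11.4 FPKM and was not called. It shares 1711 of 4017 exon bases with AC008012.1 on the same strand, a gene for which no FPKM was listed, so its own level is uncertain. SPATA18, involved in mitochondrial quality control, was listed at 0 to 0.18 FPKM and was not tested.

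Of the 2 targets that are secreted or act as tumour suppressors outside these classes, SERPINB5 was called lower after E2F1 siRNA and GDF15 after E2F3 siRNA. Both differed between the knockdowns. The called shares were 50%, 50% and 100% of the 2, against 37.8%, 37.6% and 45.5% of all genes. GDF15 (chr19:18374731-18389176, plus strand), a stress cytokine of the transforming growth factor beta family, measured 38.7, 32.9 and 34.5 FPKM in control libraries 1 to 3, 32.4, 28.96 and 26.3 with E2F1 siRNA and 22.6, 19.9 and 16.5 with E2F3 siRNA. All E2F3 siRNA libraries were lowest, and all E2F1 siRNA libraries were below the lowest control library. Its mean after E2F3 siRNA was 55.7% of control (log2 -0.82, SE 0.113, adjusted p = 3.83e-04) and it differed between the knockdowns (log2 -0.55, adjusted p = 0.00308). After E2F1 siRNA the difference was not called (log2 -0.27, adjusted p = 0.0906), but it passed without E2F3 siRNA library 3 (log2 -0.27, adjusted p = 0.0465). It passed too with only the libraries compared (adjusted p = 0.0452) and with a replicate block (adjusted p = 0.0182). SERPINB5 (chr18:63476761-63505085, plus strand), which encodes maspin, an epithelial serpin, measured 32.4, 32.5 and 31.1 FPKM in control libraries 1 to 3, 25.6, 23.3 and 25.7 with E2F1 siRNA and 32.1, 32.2 and 34.5 with E2F3 siRNA. Its E2F1 siRNA libraries lay well below the rest, and the other groups overlapped. SERPINB5 was lower after E2F1 siRNA (log2 -0.35, SE 0.0545, adjusted p = 6.99e-04), was not called after E2F3 siRNA (log2 0.04, adjusted p = 0.600), and differed between the knockdowns (log2 0.39, adjusted p = 2.97e-04).

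**Figure D3:**
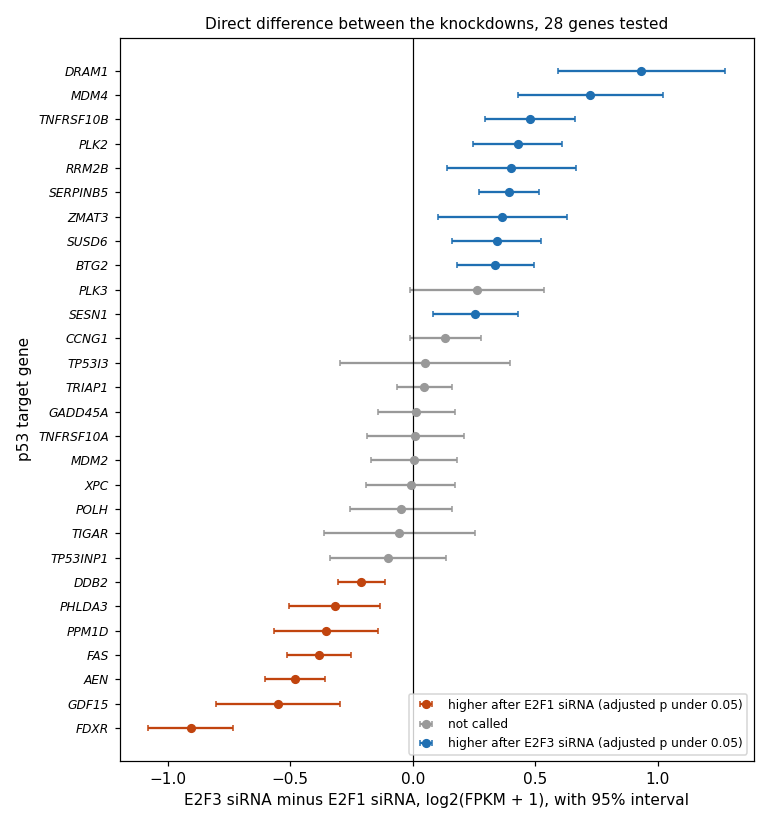
Difference between the knockdowns (E2F3 siRNA minus E2F1 siRNA, log2(FPKM + 1), horizontal axis) for the 28 tested p53 targets, with 95% intervals; blue genes were higher after E2F3 siRNA, orange genes higher after E2F1 siRNA and grey genes not called. DRAM1 and MDM4 lie farthest to the right at 0.93 and 0.73, and FDXR farthest to the left at -0.91.

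A further list of 56 p53 targets outside the 31 was counted in the same way. Of 54 tested after E2F1 siRNA, 8 were higher (14.8%, against 20.5% of all genes) and 20 lower (37%, against 17.3%), with a median log2 of -0.13. With E2F3 siRNA 14 were higher (25.9%, against 21.1%) and 9 lower (16.7%, against 16.4%). Together 42.6% were called, against 37.6% of all genes, a share near the background, with a median of 0.00. Directly, 19 were higher after E2F3 siRNA (35.2%, against 23.5%) and 12 lower (22.2%, against 22.0%), with 57.4% called against 45.5% and a median of 0.12. The cell cycle inhibitor CDKN1A, which encodes p21, measured 100, 96.97 and 97.00 FPKM in control libraries 1 to 3, 68.9, 69.6 and 61.8 with E2F1 siRNA and 55.9, 63.6 and 57.8 with E2F3 siRNA. All knockdown libraries were below all control libraries, with differences of log2 -0.55 for E2F1 siRNA (SE 0.06, adjusted p = 7.80e-05) and log2 -0.72 for E2F3 siRNA (adjusted p = 1.57e-05). Its direct difference between the knockdowns was small (log2 -0.17, adjusted p = 0.0398) and did not pass when any 1 library was left out except E2F1 siRNA library 3 or E2F3 siRNA library 2 (log2 -0.17 to -0.13), nor with upper-quartile scaling (-0.13), without a filter or with only the libraries compared.

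BAX, which permeabilises mitochondria, measured 56.97, 55.7 and 59.8 FPKM in control libraries 1 to 3, 52.4, 57.7 and 50.3 with E2F1 siRNA and 72.5, 80.96 and 76.1 with E2F3 siRNA. It was higher after E2F3 siRNA (log2 0.41, adjusted p = 6.59e-04) and not called after E2F1 siRNA (log2 -0.10, adjusted p = 0.209), and the knockdowns differed (log2 0.51, adjusted p = 1.13e-04). BBC3, which encodes the BAX activator PUMA, measured 4.61, 3.77 and 4.74 FPKM in control libraries 1 to 3, 7.75, 7.77 and 7.47 with E2F1 siRNA and 5.08, 5.89 and 5.57 with E2F3 siRNA. Its E2F1 siRNA libraries were highest (log2 0.69, adjusted p = 2.45e-04), and a smaller difference after E2F3 siRNA (log2 0.28, adjusted p = 0.0352) was lost without control library 1 (log2 0.31), control library 2 (0.20), E2F3 siRNA library 2 (0.24) or E2F3 siRNA library 3 (0.27), with RLE scaling (0.25), without a filter and with only the libraries compared. PMAIP1, which encodes NOXA, measured 51.9, 50.7 and 48.6 FPKM in control libraries 1 to 3, 43.9, 39.1 and 40.4 with E2F1 siRNA and 47.3, 38.1 and 44.5 with E2F3 siRNA. It was lower after E2F1 siRNA (log2 -0.29, adjusted p = 0.0152), but did not pass without control library 1 (-0.27) or E2F1 siRNA library 2 (-0.25). With E2F3 siRNA it was lower as well (log2 -0.22, adjusted p = 0.0485), but this was lost without control library 1, 2 or 3, E2F1 siRNA library 2 or 3, or E2F3 siRNA library 2 or 3 (log2 -0.24 to -0.13). It was also lost with upper-quartile scaling (-0.20), without a filter, with a pseudocount of 0.1 FPKM and with only the libraries compared. SFN, an epithelial checkpoint protein, measured 360, 331 and 353 FPKM in control libraries 1 to 3, 339, 355 and 340 with E2F1 siRNA and 263, 286 and 273 with E2F3 siRNA. The E2F3 siRNA libraries were lowest (log2 -0.34, adjusted p = 2.59e-04), and control and E2F1 siRNA libraries overlapped.

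**Figure D4:**
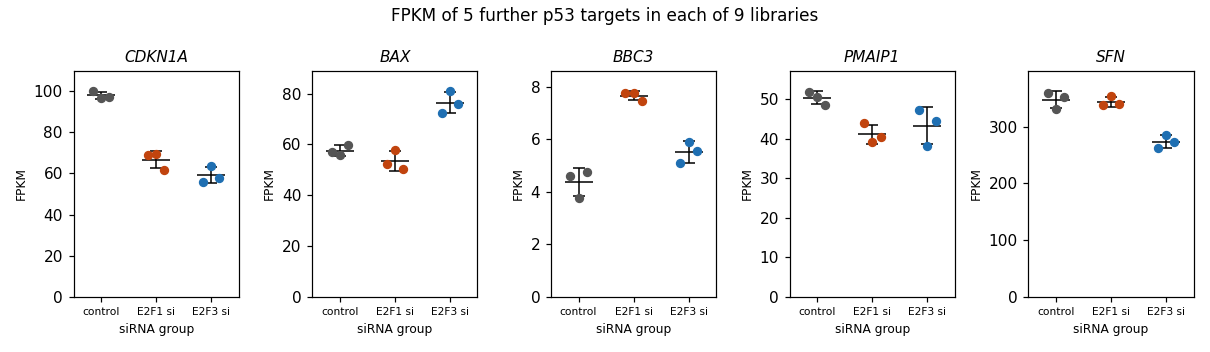
FPKM (vertical axis, from 0) of 5 further p53 targets by group; points are libraries and bars are the mean ± SD of 3. CDKN1A is lower in both knockdown groups than in control, BAX is highest after E2F3 siRNA and BBC3 is highest after E2F1 siRNA.

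The widest differences on the further list were in genes of varied function. After E2F1 siRNA these were KITLG, the ligand of the KIT receptor, which fell from 18.1 to 8.71 FPKM (log2 -0.98, adjusted p = 4.81e-06), ANKRA2, which fell from 11.2 to 5.25 FPKM (log2 -0.97, adjusted p = 2.16e-04), and the calcium channel gene ORAI3, which fell from 13.4 to 7.26 FPKM (log2 -0.81, adjusted p = 1.05e-04). After E2F3 siRNA the sestrin SESN2 fell from 13.1 to 4.58 FPKM (log2 -1.33, adjusted p = 3.35e-06), the integrin ITGA3 from 78.6 to 40.3 FPKM (log2 -0.94, adjusted p = 1.26e-06) and the plexin PLXNB2 from 41.7 to 23.9 FPKM (log2 -0.77, adjusted p = 5.51e-05). SESN2, ITGA3 and PLXNB2 were also lower after E2F1 siRNA, by less (log2 -0.59, -0.44 and -0.23, adjusted p = 5.14e-04, 1.23e-04 and 0.0408). Between the knockdowns, KITLG (8.71 against 24.1 FPKM, log2 1.37, adjusted p = 4.18e-07) and the mTOR inhibitor DDIT4 (194 against 374 FPKM, log2 0.94, adjusted p = 7.73e-07) were higher after E2F3 siRNA, and the coenzyme A synthesis gene PANK1 (9.44 against 4.61 FPKM, log2 -0.91, adjusted p = 2.61e-04) was lower. The control means of KITLG, DDIT4 and PANK1 were 18.1, 317 and 5.96 FPKM.

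Of 30 kinases, ligases and cofactors that act on p53, all were tested. After E2F1 siRNA 10 were higher (33.3%, against 20.5% of all genes) and 3 lower (10%, against 17.3%), with 43.3% called against 37.8% and a median log2 of 0.16. After E2F3 siRNA 6 were higher (20%, against 21.1%) and 5 lower (16.7%, against 16.4%), with 36.7% called against 37.6% and a median of -0.03. Directly, 3 were higher after E2F3 than after E2F1 siRNA (10%, against 23.5%) and 7 lower (23.3%, against 22.0%), with 33.3% called against 45.5% and a median of -0.03. After E2F1 siRNA the widest differences were in ZNF385A, a p53 cofactor (56.66 to 35.03 FPKM, log2 -0.68, adjusted p = 1.97e-04), the checkpoint kinase CHEK2 (24.3 to 15.4 FPKM, log2 -0.61, adjusted p = 1.91e-04) and the p53 relative TP73 (10.96 to 16.98 FPKM, log2 0.59, adjusted p = 6.12e-04). After E2F3 siRNA, called differences included the cofactor JMY (2.67 to 5.09 FPKM, log2 0.73, adjusted p = 1.04e-04) and TP63, the p53 relative of squamous epithelium (46.7 to 28.4 FPKM, log2 -0.70, adjusted p = 8.71e-05). Neither change was particular to E2F3 siRNA: after E2F1 siRNA the mean of JMY was 4.44 FPKM and that of TP63 32.1 FPKM. Between the knockdowns TP73 (log2 -0.70, adjusted p = 1.59e-04) and WRAP53, which overlaps the p53 gene in the genome (log2 -0.68, adjusted p = 9.29e-06), were lower after E2F3 siRNA. In the control, E2F1 siRNA and E2F3 siRNA groups TP73 averaged 10.96, 16.98 and 10.05 FPKM. WRAP53 averaged 16.5, 17.9 and 10.8 FPKM in the same groups.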

How the data were processed

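The 9 libraries are of RNA from transfected HK1 cells, and groups were taken from the labels. The files deposited by the authors hold FPKM per gene for each library, per the file headers, and no counts. The submitters' processing notes name GRCh38 and the tools DESeq, HISAT2, HTSeq, TopHat and Trimmomatic. What each tool did, its version and any use of strand were not given in the sources used here. Of 59107 entries per file, 58381 had an Ensembl identifier and could be tested, and 12 lines without a value were left out. Coordinates are GENCODE 29 on GRCh38, and promoter windows are RefSeq's on GRCh38.p14.

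Values were taken as log2(FPKM + 1) for the 13777 genes that reached 1 FPKM in 3 or more libraries. A limma model (limma 3.58.1, R 4.3.3, trend, not robust) with a mean per group over all 9 libraries gave the 3 comparisons, two-sided, adjusted by Benjamini-Hochberg over all genes tested, with a threshold of 0.05. The model was tested on simulated data. At most 0.726% of tested genes had identical values in any pair of libraries. The list of targets was proposed, and the further lists were written, with earlier results of these data known, although the list itself names genes and uses no measured value. Library values are printed for at most 20 called targets, those with the largest difference in any comparison, and always for MDM2 and MDM4. For each further list the 3 called genes with the largest difference per comparison are named, and CDKN1A, BAX, BBC3, PMAIP1 and SFN always. A gene that this rule names is not reported here. The E2F letters were added to the motif search after the data were seen. A planned comparison of related proteins was not run. Alternatives were RLE and upper-quartile scaling, no filter or a filter of 5 FPKM, a pseudocount of 0.1 FPKM, only the libraries compared, a replicate block, and leaving out each library. Parsing and motif searches used Python 3.11.15 (pandas 2.3.3, numpy 2.4.6).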

Additional observations from a re-analysis of the deposited data

How the results depend on the processing

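Of 41 called differences of the 31 targets, 31 kept their call under every one of the 16 alternatives that tested them. Another 10 lost it under at least 1, and 0 reversed. The lost calls were PLK3, SUSD6 and ZMAT3 after E2F1 siRNA, then BTG2, GADD45A, PHLDA3 and TRIAP1 after E2F3 siRNA, and RRM2B, SESN1 and ZMAT3 between knockdowns. The 41, and the 31 kept, include the calls of TP53INP1 after either siRNA, which passed the filter through the control libraries. Counts of called targets stayed within 1.5 times of those reported except the 4 higher after E2F3 siRNA, which became 2 with RLE scaling, 2 without a filter and 2 with a replicate block, and 2 to 5 when 1 library was left out; the cause was not tested. The block kept 38 of the 41 calls. Whether replicate numbers pair the libraries is not said by the labels. In their deviations from group means, same-numbered libraries correlated at -0.106 to 0.112 and differently numbered ones at -0.0768 to 0.0692. Same-numbered pairs with a control library were all negative, and those between the knockdowns all positive (0.0292 to 0.112). With the block, the calls of BTG2, PHLDA3 and TRIAP1 after E2F3 siRNA were lost. Using no filter ended these and those of PLK3 and ZMAT3 after E2F1 siRNA and of RRM2B and ZMAT3 between knockdowns, RLE scaling those of BTG2 and TRIAP1, and using only the libraries compared those of BTG2 after E2F3 siRNA and ZMAT3 between knockdowns. The block also called GDF15 after E2F1 siRNA (log2 -0.27) and PLK3 between knockdowns (0.26), and it ended the BBC3 call after E2F3 siRNA.

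Among all genes, the share of calls that were higher was 54.3% after E2F1 siRNA (49.3% with RLE and 48% with upper-quartile scaling), 56.2% after E2F3 siRNA (47.7% and 59.6%) and 51.6% between knockdowns (48.9% and 59.3%). Differences that were not called changed sign in places. RLE scaling gave TNFRSF10A -0.036, ZMAT3 -0.014 and SERPINB5 -0.0012 after E2F3 siRNA, and MDM2 -0.011, TNFRSF10A -0.0054 and GADD45A -0.0021 between knockdowns; upper-quartile scaling gave XPC 0.036 between knockdowns. Leaving out 1 library gave ranges across 0 for MDM2 -0.109 to 0.0349, FAS -0.0553 to 0.0095, TNFRSF10A -0.0772 to 0.0683, CCNG1 -0.0122 to 0.101, SFN -0.0481 to 0.0118 after E2F1 siRNA, TNFRSF10A -0.0679 to 0.0777, ZMAT3 -0.0838 to 0.106 after E2F3 siRNA, and MDM2 -0.0781 to 0.0658, TNFRSF10A -0.0525 to 0.0557, TP53I3 -0.0458 to 0.14, GADD45A -0.0491 to 0.0673, XPC -0.0822 to 0.0471, POLH -0.104 to 0.0063, TIGAR -0.183 to 0.0478 between knockdowns, all as log2. RLE and upper-quartile scaling called DDB2 after E2F1 siRNA (-0.14 each). Arms left with 2 libraries borrow the spread of the others. Low levels limit EDA2R, CYFIP2 and SPATA18, which were not tested.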
